A study of Mus musculus with 6 samples.

Results

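Integrins are adhesion receptors built from an alpha and a beta chain, and the genes described here encode the chains best known from blood cells. They were the 10 genes Itgam, Itgal, Itgax, Itgb2, Itgb1, Itga4, Itga5, Itga6, Itgb7 and Itgav, picked by symbol from the 34199 genes counted. All 10 passed the filter on low counts, as did 12460 genes in all. On myeloid cells the β2 chain, encoded by Itgb2, pairs with αL (Itgal, the lymphocyte function-associated antigen LFA-1), αM (Itgam, CD11b, the complement receptor Mac-1), αX (Itgax, CD11c) or αD (Itgad). The β1 chain (Itgb1) pairs with α4, α5, α6 and αV among others and binds matrix proteins and VCAM-1, and the β7 chain (Itgb7) pairs with α4 to bind MAdCAM-1. Neither chain of a pair reaches the cell surface well without its partner, and CD11b is widely used as a sign of maturing neutrophils and monocytes.

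RNA was sequenced from iGMPs (Lys-GFP-ER-HoxA9 cells), a C57Bl/6 mouse granulocyte-macrophage progenitor line immortalized by a HOXA9 protein joined to a mutant estrogen receptor's hormone-binding part, so that HOXA9 works only while estradiol is present. All groups carried this fusion and a GFP reporter driven by the Lysozyme promoter, were grown with stem cell factor, and were collected at 24 h, with 2 libraries each. CAF-1 OFF cells were kept in estradiol at 150 ng/ml and received 500 µM IPTG, which switched on a hairpin RNA against Chaf1b, which encodes part of the CAF-1 chaperone that loads histones behind replication forks. Control cells were labelled as IPTG-treated, also in estradiol, and the labels gave neither their IPTG dose nor their vector, which the methods of the study describe as a spacer sequence in place of the hairpin. HOXA9 OFF cells were washed and cultured without estradiol. The labels left out whether HOXA9 OFF cells had IPTG and which clone they came from, so effects of clone or IPTG cannot be told apart from the estradiol withdrawal. The lines of the study were clonal, and the study mentions RNA-seq of independent sub-clones without tying them to these libraries. The labels did not say whether the 2 libraries of a group came from separate cultures, so the p-values below measure only the spread between these libraries, which may be technical.

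Libraries held 16773560 to 25170898 counts assigned to genes, and values below are CPM (counts scaled to a common library total) after scaling with the trimmed mean of M-values (TMM), given for library 1 and then library 2. At this depth 3 counts, taken as the detection floor, corresponded to 0.119 to 0.179 CPM. Chaf1b was at 90 and 105 CPM in control, 64.6 and 61.4 CPM in HOXA9 OFF, and 17.8 and 12.1 CPM in CAF-1 OFF. It fell by 2.71 ± 0.20 on the log2 scale (SE) in CAF-1 OFF against control (edgeR FDR 0.0198). In HOXA9 OFF against control it fell as well, by 0.63 ± 0.18 (SE, edgeR FDR 0.0396). Hoxa9 mRNA does not check the HOXA9 OFF label, because estradiol withdrawal acts on the protein. The 9 markers of granulocyte-macrophage progenitors were all detected, with summed levels of 12193 to 17954 CPM over the 6 libraries. The marker lists of dendritic (4 genes), T and NK (5), B (4), erythroid (6) and stromal cells (5) each summed to at most 7.69 CPM in every library, and Cd3e, Cd3g, Ncr1 and Kdr had no count in any. The 5 mast cell and basophil markers summed to 317 to 383 CPM in HOXA9 OFF, 298 to 679.9 CPM in CAF-1 OFF and 239 to 279.8 CPM in control, mostly from Cpa3, and their part in the results below was not tested.

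Itgam and Itgax lie side by side on chromosome 7, and their starts are shown because only Itgam was called as changed. By GENCODE on NCBIM37 (the assembly also called mm9), Itgam spans chr7:135206154-135271674, Itgax chr7:135273061-135294171 and Itgad chr7:135297890-135349015, all on the plus strand. Itgax starts 1386 bp after Itgam ends, and Itgad starts 3718 bp after Itgax. Itgal lies 728 kb upstream at chr7:134439774-134478651. Itgb2 is on chromosome 10 (76992997 to 77028453, plus strand) and Itgb1 on chromosome 8 (131209554 to 131257100, plus strand). Chromosome 2 holds Itga6 (71583673 to 71696473), Itga4 (79095583 to 79173280) and Itgav (83564554 to 83647073), all on the plus strand. Chromosome 15 holds Itgb7 (102046426 to 102062366) and Itga5 (103174720 to 103197194), both on the minus strand. Itga4 overlaps Cerkl on the opposite strand, and Itga6 and Itgav overlap 4 and 2 genes with no protein product, 2 of those at Itga6 on the same strand as it, so that the counts of these 3 genes carry more doubt.

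The 250 bases before the RefSeq start are given for Itgam and Itgb7, which rose in HOXA9 OFF, and for Itgax, the neighbour of Itgam that was not called. Sequences are from the RefSeq promoter table for GRCm38.p6, which held 7 of the 10 genes (Itgb2, Itgal and Itga6 had no entry), and each matched NCBIM37 exactly at 1 place, namely chr7:135205904-135206153 (plus strand) for Itgam, chr7:135272814-135273063 (plus strand) for Itgax and chr15:102062367-102062616 (minus strand) for Itgb7. They read 5′ to 3′ in the direction of the gene. Capitals mark GAGGAA, the core that the myeloid factor PU.1 prefers, or its reverse complement TTCCTC.
Itgam: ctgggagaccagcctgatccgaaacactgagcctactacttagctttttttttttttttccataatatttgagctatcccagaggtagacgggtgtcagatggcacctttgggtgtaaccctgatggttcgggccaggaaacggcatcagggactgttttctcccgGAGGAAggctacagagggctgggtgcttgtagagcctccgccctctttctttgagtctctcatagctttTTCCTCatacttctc
Itgax: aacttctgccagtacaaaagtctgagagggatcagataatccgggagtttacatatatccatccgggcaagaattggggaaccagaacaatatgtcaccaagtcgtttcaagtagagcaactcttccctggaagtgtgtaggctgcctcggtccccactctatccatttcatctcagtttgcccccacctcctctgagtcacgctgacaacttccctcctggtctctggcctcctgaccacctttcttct
Itgb7: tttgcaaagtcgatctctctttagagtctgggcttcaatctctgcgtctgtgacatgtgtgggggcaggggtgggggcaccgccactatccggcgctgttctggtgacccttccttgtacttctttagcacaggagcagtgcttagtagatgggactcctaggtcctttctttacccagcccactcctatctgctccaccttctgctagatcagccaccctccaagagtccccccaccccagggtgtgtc
The Itgam window held these letters 2 times, once on each strand, starting 84 and 15 bases before the gene start. The Itgax and Itgb7 windows held none. The letters were not particular to Itgam, since 4 of the 7 members with an entry held them, including Itgav with 2 matches and Itgb1 and Itga5 with 1 each, and none of those 3 genes was called. Of the 32851 windows of 250 bases in the table, 23.3% held at least 1 match and 3.54% held 2 or more. A match is a stretch of letters only, and binding was not measured in these libraries.

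HOXA9 OFF was compared with control to ask which of these chains change as the progenitors leave self-renewal, since the study followed CD11b as a sign of differentiation. Itgam, Itgb2 and Itgb7 rose, and no member fell. The call required a 1.5-fold or greater difference and a false discovery rate (FDR, Benjamini-Hochberg over the 12460 genes) under 0.05 in edgeR's quasi-likelihood test. By this rule 3 of 10 members were called, against 22.0% of all genes, and 3 of 10 were called higher, against 13.0% of all genes. None of the 10 was called lower, against 8.97% of all genes, and with no fold or adjustment 5 of 10 had p under 0.05, beside 5216 of 12460 genes. The median log2 fold change was 0.40 over the 10 members and -0.00 over all genes.

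Itgam made the largest change of the members. It measured 25.1 and 15.6 CPM in control (639 and 268 counts), and 513 and 404 CPM in HOXA9 OFF (10641 and 6664 counts). The ranges lay far apart, with the lower HOXA9 OFF library well above the higher control library. Mean Itgam rose from 20.3 ± 6.75 to 459 ± 77.3 CPM (SD, n = 2 libraries in each), a fitted 22.4-fold difference (log2 4.49 ± 0.32 SE, 95% CI 3.73 to 5.24, edgeR FDR 0.000475). In bulk RNA, more cells of a type and more RNA per cell cannot be told apart, here or in the results that follow.

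Itgb2, the shared partner of αM and αL, rose as well. Its level was 87 and 71.8 CPM in control and 509 and 423 CPM in HOXA9 OFF, with no overlap. The fitted difference was 5.87-fold (log2 2.55 ± 0.18 SE, 95% CI 2.12 to 2.98, edgeR FDR 0.000476). Itgb7 stood at 16.6 and 8.71 CPM in control and at 39.3 and 46.4 CPM in HOXA9 OFF. Its control libraries differed more from each other than its HOXA9 OFF libraries did, and both stayed below them. The difference was 3.35-fold (log2 1.75 ± 0.29 SE, 95% CI 1.05 to 2.44, edgeR FDR 0.0062), and over fits that left out each library in turn it ranged from 1.37 to 2.29 on the log2 scale.

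The other partners of β2 did not follow Itgam by the same rule. Itgal measured 164 and 139 CPM in control and 221 and 195 CPM in HOXA9 OFF. Both HOXA9 OFF libraries were higher, and the test passed (edgeR FDR 0.0306), but the 1.37-fold difference (log2 0.46 ± 0.12 SE, 95% CI 0.17 to 0.74) stayed below the 1.5-fold minimum. Itgax was the lowest member everywhere, with 61 and 14 counts in control (2.4 and 0.813 CPM) and 42 and 39 counts in HOXA9 OFF (2.03 and 2.36 CPM). Its control libraries straddled the HOXA9 OFF ones. The interval of its log2 difference ran from -0.91 to 1.75 (edgeR FDR 0.609), with few counts and control libraries that lay far apart, and without control library 2 the estimate turned to -0.13.

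Itgb1 and the members that pair with it (Itga4, Itga5, Itga6 and Itgav), receptors for fibronectin, laminin, vitronectin and VCAM-1, gave no call between control and HOXA9 OFF. Itgb1 was at 464 and 432 CPM in control and 383 and 392 CPM in HOXA9 OFF, lower in both libraries (log2 -0.21 ± 0.10 SE, 95% CI -0.44 to 0.02, edgeR FDR 0.147). Itga5, the α5 chain of the fibronectin receptor, was at 67.1 and 67.3 CPM in control and 61.9 and 60.7 CPM in HOXA9 OFF (log2 -0.13, 95% CI -0.37 to 0.10, edgeR FDR 0.348). Both were lower without overlap between libraries, and neither was called.

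Itga6, the α6 chain of laminin receptors, was at 344 and 282 CPM in control and 281 and 296 CPM in HOXA9 OFF (log2 -0.12, 95% CI -0.51 to 0.27, edgeR FDR 0.62). Itga4, the α4 chain that pairs with β1 or β7, was at 296 and 191 CPM in control and 229 and 252 CPM in HOXA9 OFF (log2 -0.02, 95% CI -0.66 to 0.62, edgeR FDR 0.965). For both genes the control libraries lay farther apart than the HOXA9 OFF libraries and overlapped them. Without control library 1 the estimates turned to 0.32 for Itga4 and 0.02 for Itga6. Itgav, the αV chain of vitronectin receptors, was at 51.2 and 47.3 CPM in control and 68.3 and 59.4 CPM in HOXA9 OFF, higher in both libraries (log2 0.37 ± 0.12 SE, 95% CI 0.08 to 0.67, edgeR FDR 0.0635). In all, library ranges did not overlap for 7 of 10 members (5 higher, 2 lower), and for 71.0% of all genes in this comparison.

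**Figure D1:**
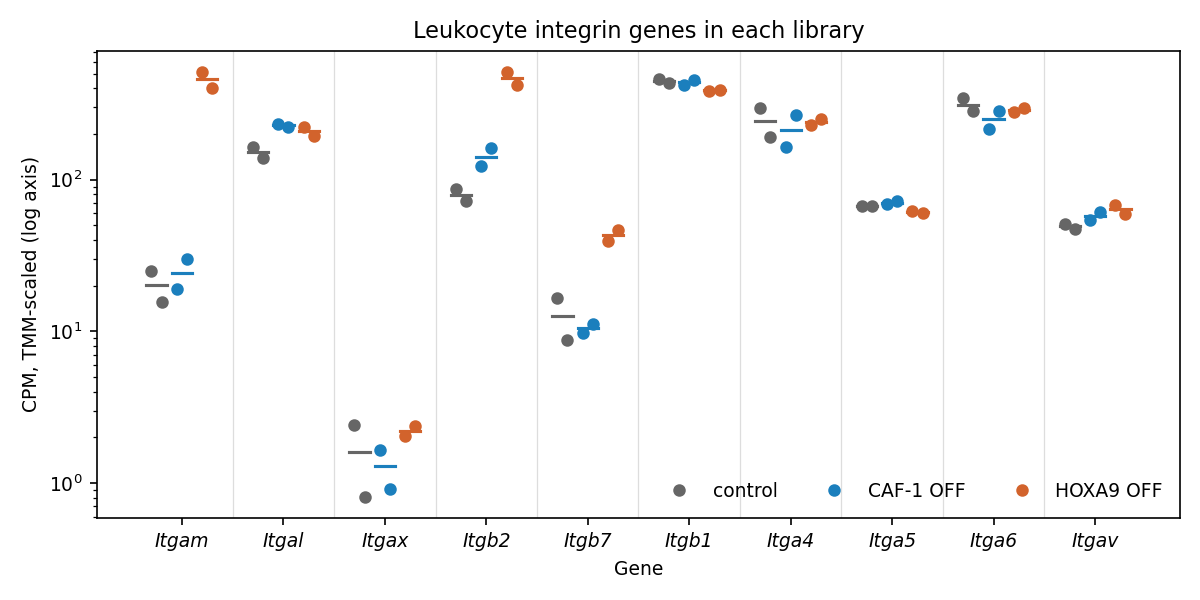
Level of each integrin gene in CPM (TMM-scaled, log axis) in control (grey), CAF-1 OFF (blue) and HOXA9 OFF (orange). Points are libraries and short lines are means of 2; Itgam stands at 404 to 513 CPM in HOXA9 OFF and at 15.6 to 29.8 CPM in the other groups.

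CAF-1 OFF was then compared with control to ask whether loss of CAF-1 moves the same chains at this early time. No member was called by edgeR, against 0.0321% of all genes (4 of 12460), so few genes of any kind passed. With no fold or adjustment, 2 of 10 members and 1330 of 12460 genes had p under 0.05, and DESeq2 called 2 members (Itgal and Itgb2) and 192 genes. The median log2 fold change of the members was 0.02, and -0.00 over all genes. This comparison and the previous one share the control libraries.

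Itgb2 and Itgal were the members with p under 0.05, and both were higher in both CAF-1 OFF libraries. Itgb2 measured 123 and 161 CPM in CAF-1 OFF beside 87 and 71.8 CPM in control, a 1.78-fold difference (log2 0.83 ± 0.17 SE, 95% CI 0.42 to 1.25, edgeR FDR 0.199). Itgal measured 234 and 223 CPM beside 164 and 139 CPM, a 1.51-fold difference (log2 0.59 ± 0.12 SE, 95% CI 0.30 to 0.88, edgeR FDR 0.193). DESeq2 put both past the threshold, with FDR 0.00165 for Itgb2 and 0.00339 for Itgal, and edgeR without the filter on low counts gave FDR 0.000131 for Itgb2 and 0.00737 for Itgal, whose log2 fold change of 0.579 fell just under the fold minimum of 0.585.

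Itgam was at 19 and 29.8 CPM in the CAF-1 OFF libraries and at 25.1 and 15.6 CPM in control. The libraries of both groups interleaved, and the interval of the log2 difference ran from -0.44 to 0.94 around 0.25 (edgeR FDR 0.799). The estimate fell to -0.03 without control library 2 and to -0.10 without CAF-1 OFF library 2. Itgb7, at 9.82 and 11.1 CPM in CAF-1 OFF, lay between the control libraries (log2 -0.28, 95% CI -0.98 to 0.42, edgeR FDR 0.78), with an estimate of 0.27 without control library 1. Itgax had 32 and 18 counts in CAF-1 OFF, 1.66 and 0.911 CPM, also between the control libraries (log2 -0.35, 95% CI -1.71 to 1.01, edgeR FDR 0.876), and without control library 1 the estimate was 0.66.

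Itgb1 and these partners gave no call in CAF-1 OFF either. Itgb1 was at 424 and 452 CPM (log2 against control -0.03, 95% CI -0.26 to 0.20, edgeR FDR 0.936), and Itga5 at 68.8 and 72.1 CPM (log2 0.07, 95% CI -0.16 to 0.30, edgeR FDR 0.856). Itga4 was at 163 and 265 CPM (log2 -0.19, 95% CI -0.83 to 0.46, edgeR FDR 0.854) and Itga6 at 215 and 285 CPM (log2 -0.33, 95% CI -0.71 to 0.06, edgeR FDR 0.537). For Itga4 and Itga6 the first CAF-1 OFF library was the lowest of all 6. Itgav was at 54.4 and 61.2 CPM, above both control libraries (log2 0.23, 95% CI -0.07 to 0.53, edgeR FDR 0.572). Itgal, Itgb2, Itga5 and Itgav thus did not overlap with control, 4 of 10 members beside 40.1% of all genes.

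The direct comparison of CAF-1 OFF with HOXA9 OFF tested whether the levels under the treatments differed. The genes Itgam, Itgb2 and Itgb7 were lower in CAF-1 OFF, which made 3 of 10 members called and 3 called lower, against 22.1% and 12.6% of all genes. None was called higher by edgeR, against 9.56% of all genes, and 3 of 10 members had an unadjusted p under 0.05, beside 5271 of 12460 genes. Itgam was 18.8-fold lower (log2 -4.23 ± 0.31 SE, edgeR FDR 0.000548), Itgb7 was 4.08-fold lower (log2 -2.03 ± 0.30 SE, edgeR FDR 0.00423) and Itgb2 was 3.29-fold lower (log2 -1.72 ± 0.18 SE, edgeR FDR 0.00139). CAF-1 OFF and HOXA9 OFF values of Itgal were close, with a log2 difference of 0.13 (95% CI -0.15 to 0.42, edgeR FDR 0.442).

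Among the remaining members the log2 difference between CAF-1 OFF and HOXA9 OFF ran from -0.77 for Itgax (95% CI -2.12 to 0.59) to 0.20 for Itga5 (95% CI -0.03 to 0.43), and none was called. Over the 10 members the median log2 fold change was -0.19, against 0.00 over all genes. Library ranges did not overlap for 7 of 10 members (3 higher, 4 lower in CAF-1 OFF), and for 66.7% of all genes. The libraries of Itgb2, Itgal and Itga5 stood at 3 separate levels, with CAF-1 OFF between control and HOXA9 OFF for Itgb2 and highest for Itgal and Itga5. For Itgal the gap was small, with the lower CAF-1 OFF library at 223 CPM and the higher HOXA9 OFF library at 221 CPM. Neither Itgal nor Itga5 was called by edgeR in any comparison. How many of all genes stood at 3 separate levels was not counted.

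**Figure D2:**
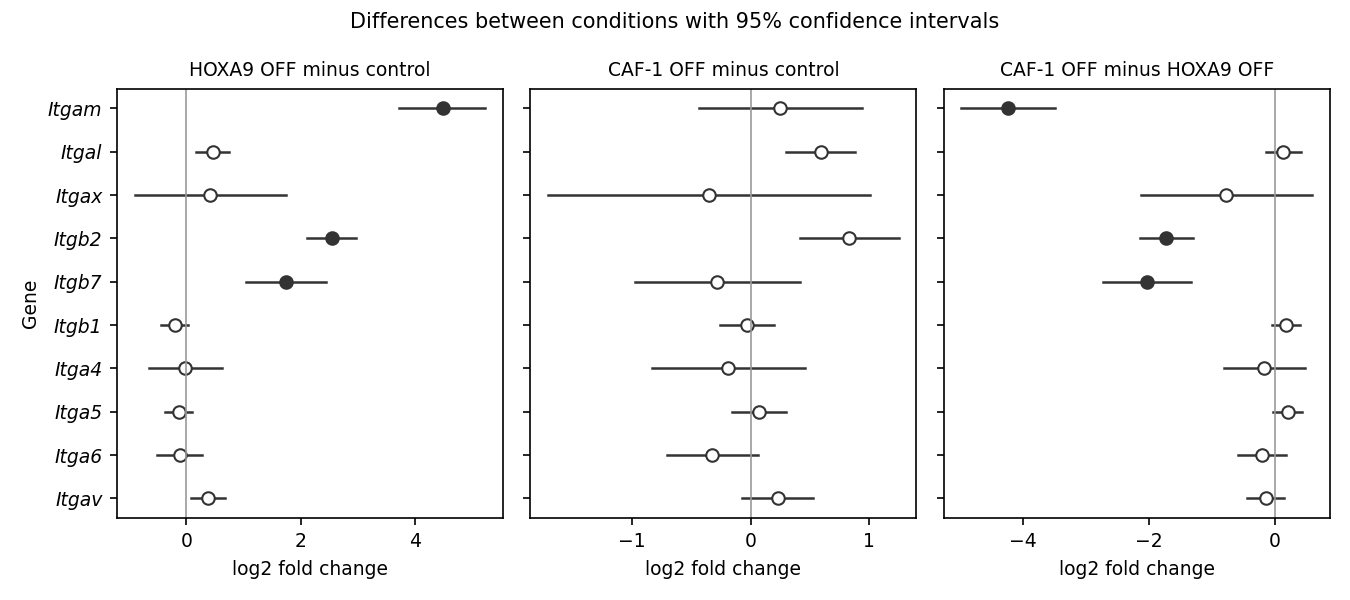
Log2 fold change of each integrin gene in the 3 comparisons, first group minus second, as point and 95% confidence interval; filled points were called at 1.5-fold and FDR under 0.05. Itgam, Itgb2 and Itgb7 are filled in both comparisons with HOXA9 OFF, and no point is filled for CAF-1 OFF minus control.

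Levels of different genes were set side by side per kilobase of exon (CPM per kb). Lengths were unions of all annotated exons, 13.98 kb for Itga4, 10.74 kb for Itgav and 9.03 kb for Itga6, against 3.05 kb for Itgb2. A union can be longer than the transcripts present, so the order depends on these lengths, and it was not tried with others. In control the order was led by Itgb1 (106 to 114 CPM per kb), Itga6 (31.3 to 38.1) and then Itgb2 (23.5 to 28.5) and Itgal (21.8 to 25.7), whose ranges overlapped. Itga4 and Itga5 followed with overlapping ranges, then Itgb7 and Itgav, also overlapping, with Itgam (2.44 to 3.94) and Itgax (0.201 to 0.592) at the bottom. Itgam ranked ninth by its mean, with a range that overlapped that of Itgb7 (3.17 to 6.06) but not those of Itgav and Itgax.

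In CAF-1 OFF the order was Itgb1 (104 to 111 CPM per kb), Itgb2 (40.2 to 52.6), Itgal (35 to 36.7) and Itga6 (23.8 to 31.6), each apart from the next. Itga5 and Itga4 overlapped below them, and Itgav, then Itgam and Itgb7 (overlapping) and Itgax came last. Itgb2 and Itgal stood above Itga6 here, and below it in control.

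In HOXA9 OFF Itgb2 came first (139 to 167 CPM per kb), ahead of Itgb1 (94 to 96), Itgam (63.4 to 80.5), and then Itgal (30.6 to 34.6) and Itga6 (31.1 to 32.8), which overlapped. Itga4 and Itgb7 overlapped next, at 16.4 to 18 and 14.3 to 16.9 CPM per kb, followed by Itga5, Itgav and Itgax. The β2 transcript was therefore the most abundant of the 10 per kilobase in HOXA9 OFF, and the β1 transcript in both other groups.

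The makeup of the β2 family also differed between groups. Of the summed CPM per kb of its 4 alpha genes, Itgal took 83.9% and 88.2% in control and 91.1% and 87.3% in CAF-1 OFF, but 29.9% and 32.3% in HOXA9 OFF. Itgam took 12.8% and 9.86% in control, 7.39% and 11.7% in CAF-1 OFF, and 69.6% and 66.9% in HOXA9 OFF. The HOXA9 OFF shares lay outside those of the other groups for both genes, while control and CAF-1 OFF overlapped. Itgax and Itgad each stayed at or under 1.93% in every library. With 2 libraries in a group an exact two-sided permutation test cannot go below p = 0.333, so these shares are given without a test.

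The ratio of Itgam to Itgal per kb was 2.33 and 2.07 in HOXA9 OFF, 0.153 and 0.112 in control, and 0.0811 and 0.134 in CAF-1 OFF. Summed, the 4 alpha genes reached 1.07 and 1.05 times the Itgb2 level in control, 1 and 0.761 times in CAF-1 OFF, and 0.694 and 0.683 times in HOXA9 OFF. The alpha sum was thus about level with Itgb2 in control and below it in HOXA9 OFF. Among the 3 beta genes, a grouping chosen after the values were seen, Itgb2 made up 19.2% and 17.7% in control, 27.2% and 31.4% in CAF-1 OFF, and 60.6% and 55.1% in HOXA9 OFF. Itgb1 made up 76.7% and 79.9% of that sum in control and 34.2% and 38.2% in HOXA9 OFF, while its own level was not called as changed.

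**Figure D3:**
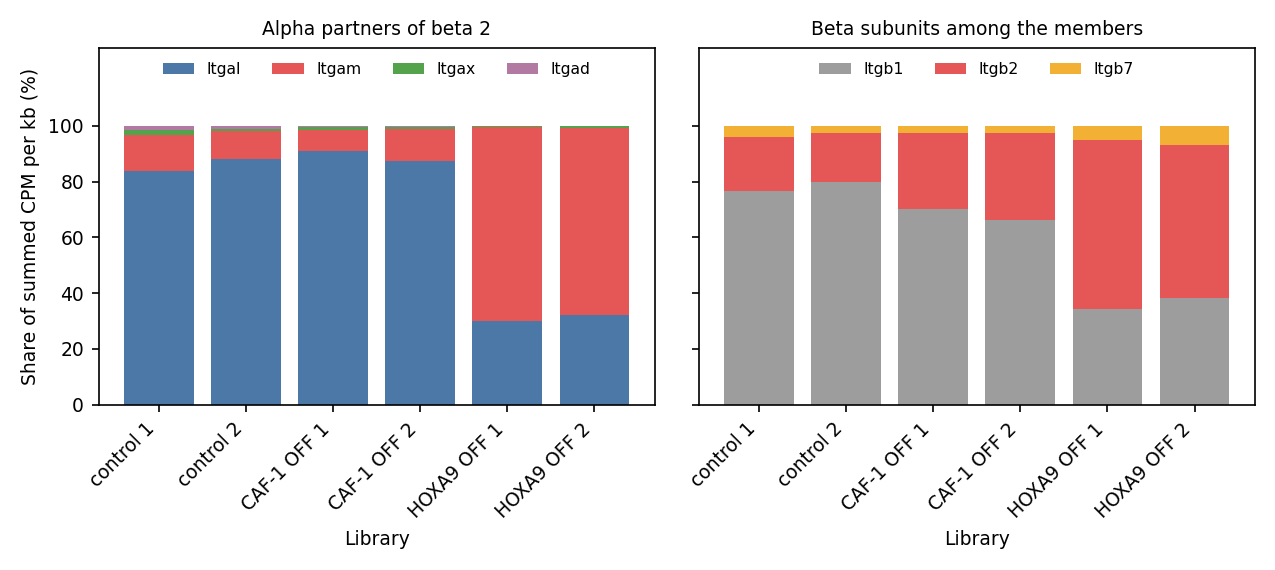
Share of summed CPM per kb in each library (bars from 0, library 1 and 2 of each group) for the alpha partners of β2 (left) and the beta genes among the members (right). Itgam fills 66.9% to 69.6% of the left bars in HOXA9 OFF and at most 12.8% elsewhere.

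Several markers of maturing myeloid cells were also called in HOXA9 OFF. In HOXA9 OFF against control, 6 of 8 mature neutrophil markers (7 tested) were called higher and none lower, beside 13.0% and 8.97% of all genes, among them Ltf and Camp, which encode granule proteins, with log2 fold changes of 6.13 and 6.25. Summed neutrophil markers were at 273 to 428 CPM in HOXA9 OFF and 97.9 to 107 CPM in control. They were at 414 to 677 CPM in CAF-1 OFF, where Mmp8 alone gave 332 and 630.2 CPM. Of 7 monocyte and macrophage markers (6 tested), 4 were called higher and 1 lower, with Csf1r, the receptor of the macrophage growth factor, at 215 and 292 CPM in HOXA9 OFF against 4.05 and 4.24 CPM in control.

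Summed monocyte and macrophage markers were at 504 to 695 CPM in HOXA9 OFF, 399.6 to 568 CPM in control and 415 to 556 CPM in CAF-1 OFF. Ccr2, the marker called lower, carried most of the latter sums, at 346 and 539 CPM in control, 517 and 373 CPM with CAF-1 OFF, and 67.2 and 212 CPM in HOXA9 OFF. Of the 9 progenitor markers, Cd34, Kit, Myb and Ctsg were called lower in HOXA9 OFF against control and Fcgr3 higher, beside 8.97% and 13.0% of all genes. No marker of these 3 lists was called by edgeR in CAF-1 OFF against control, where 3 of 7 neutrophil, 2 of 6 monocyte and macrophage and 2 of 9 progenitor markers tested had an unadjusted p under 0.05, beside 1330 of 12460 genes. The part of a change in cell makeup in the Itgam, Itgb2 and Itgb7 results was not tested.

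The rest of the integrin family was read from a list of 17 other subunits, of which 11 passed the filter. In HOXA9 OFF against control 4 rose and 2 fell, beside 13.0% and 8.97% of all genes, and in CAF-1 OFF against control none was called, with 2 of 11 at unadjusted p under 0.05 by edgeR, beside 1330 of 12460 genes. Itgb3, the β3 chain that pairs with αV and αIIb, was at 83.9 and 60.7 CPM in control and 196 and 205 CPM in HOXA9 OFF (log2 1.47 ± 0.17 SE, edgeR FDR 0.00195). Itga2b, the αIIb chain of the platelet fibrinogen receptor, was at 16.4 and 16.8 CPM in control and 53.8 and 62.2 CPM in HOXA9 OFF (log2 1.80 ± 0.33 SE, edgeR FDR 0.00847). In the CAF-1 OFF libraries Itga2b was at 43.4 and 20.2 CPM, both above control and far apart from each other, and was not called (log2 0.94 ± 0.33 SE, edgeR FDR 0.381). Itgb3 and Itga2b were both higher in each HOXA9 OFF library than in any control library. Itga2b is also 1 of 6 megakaryocyte markers, which summed to 68.2 to 79.9 CPM in HOXA9 OFF, 37.5 to 76.5 in CAF-1 OFF and 26 to 28.2 in control, with Gp1bb at 0 counts throughout. Itga2b itself made up most of that sum in every library. It was the only 1 of the 4 markers tested from that list that was called in HOXA9 OFF against control, beside 13.0% of all genes called higher.

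Itga9, a partner of β1, went the other way, from 60 and 46.1 CPM in control to 9.26 and 6.61 CPM in HOXA9 OFF (log2 -2.73 ± 0.21 SE, edgeR FDR 0.000561). In CAF-1 OFF it was at 59.8 and 57.2 CPM, and the direct comparison with HOXA9 OFF gave a log2 difference of 2.87 ± 0.21 (SE, edgeR FDR 0.000524). Itga9 thus fell in HOXA9 OFF while the measured β1 transcript was not called. The further calls, Itga1 and Itgb2l (higher) and Itgad (lower), came from genes with a mean under 5 CPM and are named only because they were few. Itgad, the neighbour of Itgax, had 46 and 21 counts in control, 15 and 14 in CAF-1 OFF, and 11 and 8 in HOXA9 OFF. Itga1, Itga2b, Itga9, Itgad and Itgb2l each overlap another annotated gene, which leaves their counts less certain. Between CAF-1 OFF and HOXA9 OFF, Itga9 was called higher in CAF-1 OFF and Itga1, Itgb3 and Itgb5 lower, 1 and 3 of 11 beside 9.56% and 12.6% of all genes.

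Of 42 adaptor and signalling genes that link integrins to actin or switch them on, 33 passed the filter. In HOXA9 OFF against control 15 rose and 1 fell, beside 13.0% and 8.97% of all genes, with a median log2 fold change of 0.54 over the 33, against -0.00 over all genes. Among the largest changes were Fgr, a kinase of the Src family that acts below β2 integrins in myeloid cells, Tln1 (talin), which binds the beta tail, Vcl (vinculin), and Parvb, a parvin in the complex with integrin-linked kinase. Fgr was at 6.09 and 3.89 CPM in control and 40.7 and 20.9 CPM in HOXA9 OFF (log2 2.61 ± 0.37 SE, edgeR FDR 0.00369). Tln1 rose by 1.08 ± 0.21 and Vcl by 0.98 ± 0.19 on the log2 scale (SE, edgeR FDR 0.00975 and 0.0114), and Parvb fell by 1.93 ± 0.27 (SE, edgeR FDR 0.00329). Tln1 and Vcl overlap Creb3 and Ap3m1 on the opposite strand, and Zyx and Lamc1, named below, overlap Epha1 and Gm8818 on the opposite strand.

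With CAF-1 OFF against control no adaptor was called by edgeR, and the median log2 fold change was 0.07. An unadjusted p under 0.05 by edgeR was found for 2 of 33, beside 1330 of 12460 genes. DESeq2 called 1 of 33, beside 192 of 12460 genes. In CAF-1 OFF against HOXA9 OFF, 13 were lower and 1 higher, beside 12.6% and 9.56% of all genes, among them Fgr (log2 -2.30 ± 0.37 SE), and Flna (-1.07 ± 0.22) and Zyx (-0.95 ± 0.14), which encode the actin-linked proteins filamin A and zyxin. Parvb was the one called higher (log2 3.03 ± 0.27 SE, edgeR FDR 0.00096), at 26.6 and 27.7 CPM in the CAF-1 OFF libraries and 3.38 and 3.27 CPM in HOXA9 OFF.

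Ligands and counter-receptors of these integrins formed a list of 25 genes, 17 of them past the filter. In HOXA9 OFF against control 5 rose and 4 fell, beside 13.0% and 8.97% of all genes. C3, the complement protein whose fragment iC3b is bound by αMβ2, was at 20.2 and 8.42 CPM in control and 379.9 and 223 CPM in HOXA9 OFF (log2 4.37 ± 0.47 SE, edgeR FDR 0.00156). Vcam1, the partner of α4β1, was at 0.668 and 0.871 CPM in control and 5.98 and 5.7 CPM in HOXA9 OFF (log2 2.93 ± 0.65 SE, edgeR FDR 0.0171). Spp1, which encodes osteopontin, rose by 2.40 ± 0.35, Thy1 fell by 3.16 ± 0.75 and Lama5, a laminin chain, fell by 2.22 ± 0.28 on the log2 scale (SE, edgeR FDR 0.00387, 0.0214 and 0.00249).

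No ligand was called in CAF-1 OFF against control, while 9 of 17 had an unadjusted p under 0.05 by edgeR, beside 1330 of 12460 genes, 1 was called by DESeq2, beside 192 genes, and the median log2 fold change was 0.62, against -0.00 over all genes. Vcam1, chosen after its values were seen, was at 5.87 and 22 CPM in CAF-1 OFF against 0.668 and 0.871 CPM in control (log2 4.19 ± 0.66 SE, edgeR FDR 0.142). Both libraries were far above control, but they differed widely from each other. Between CAF-1 OFF and HOXA9 OFF, 4 ligands were higher and 4 lower in CAF-1 OFF, beside 9.56% and 12.6% of all genes, with Thy1 (log2 5.22 ± 0.77 SE), Lama5 (2.17 ± 0.28) and Lamc1 (1.59 ± 0.20) higher and C3 (-3.11 ± 0.44) and Spp1 (-2.24 ± 0.34) lower.

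**Figure D4:**
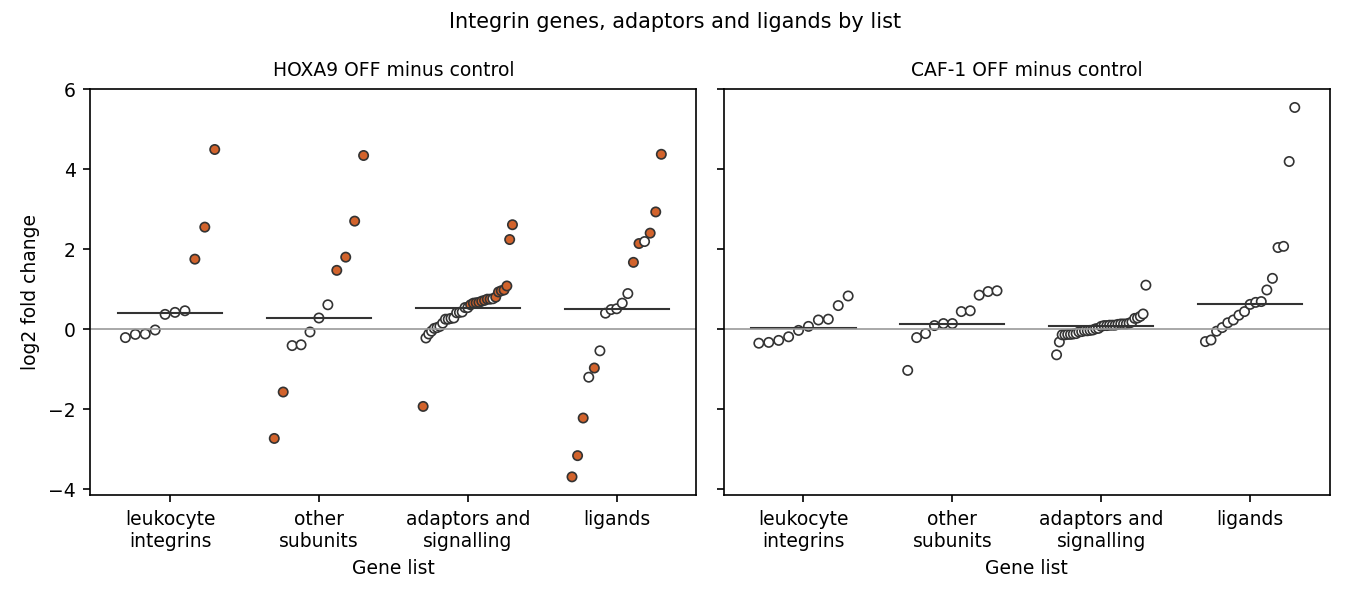
Log2 fold change of the 10 leukocyte integrin genes, 11 other subunits, 33 adaptor and signalling genes and 17 ligands in HOXA9 OFF minus control (left) and CAF-1 OFF minus control (right). Each point is a gene, orange points were called, and lines are medians; 3, 6, 16 and 9 genes are orange on the left and none on the right.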

How the data were processed

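Bulk RNA-seq was made for 6 libraries, 2 in each of 3 groups taken from the sample titles. The authors extracted RNA with a Qiagen RNeasy kit, used STAR for alignment to mm9 and HTSeq-count for reads per gene, and the deposited values are raw counts with no normalization. The annotation, strand setting and overlap mode of the counting are not given in the sources used here. By default HTSeq-count drops reads with more than 1 alignment, which lowers counts of near-identical genes. The 5 tally lines in each file were kept out of all sums, and reads in no gene came to 5.95% to 8.26% of the gene counts.

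The count model was edgeR 4.0.16, with limma 3.58.1, under R 4.3.3 (filterByExpr by group, TMM factors of 0.954 to 1.03, quasi-likelihood F test on all 6 libraries with 1 mean per group). The fit and the FDR covered 12460 genes. The cutoffs of 1.5-fold and FDR 0.05 follow the methods of the study. SEs were derived from the F statistic. Replicates differed beyond counting noise (chi-square per degree of freedom 20.5 to 27.6), so no library was a copy of another. The fit was tested on simulated counts. Exon lengths were unions of GENCODE exons on NCBIM37, and promoters came from RefSeq.

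The 10 members and the lists were chosen with earlier results of these data known. All members were named. From each of the 3 other lists, called genes were named up to the 5 largest log2 fold changes with a mean of at least 5 CPM, and 1 gene that this rule would name is not reported here. Alternatives were DESeq2 1.42.0, DESeq2 size factors, library size alone, no filter, a mean CPM of at least 5, 4 libraries only, a replicate block, other cutoffs, and each library left out. A crossed block was added after seeing the data. Floors cover counting error only, since PCR copies of a molecule are counted as separate reads.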

Additional observations from a re-analysis of the deposited data

How the results depend on the processing

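The calls of Itgam, Itgb2 and Itgb7 held in each of 13 alternatives, both in HOXA9 OFF against control and in CAF-1 OFF against HOXA9 OFF. Of the alternative values of member fold changes, 370 kept direction and side of the threshold, 14 changed sign and 3 became calls. In CAF-1 OFF against control, Itgb2 was called with no filter (log2 0.82) and by DESeq2 (0.84), and Itgal by DESeq2 (0.60), and the cause was not tested. Fits without 1 library, in which the lone library is assumed to vary like the other groups, turned the sign of members that were not called. For CAF-1 OFF against control their log2 fold changes ranged from -0.10 to 0.65 for Itgam, -0.88 to 0.66 for Itgax, -0.074 to 0.023 for Itgb1, -0.56 to 0.16 for Itga4 and -0.66 to 0.27 for Itgb7. In HOXA9 OFF against control they ranged from -0.13 to 1.42 for Itgax, -0.30 to 0.32 for Itga4 and -0.255 to 0.024 for Itga6, and in CAF-1 OFF against HOXA9 OFF from -0.54 to 0.14 for Itga4.

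Counts of calls in CAF-1 OFF against control depended most on the processing. Members called were 0 in the main fit, 1 with no filter and 2 by DESeq2. All genes called were 4 in the main fit, 378 with no filter, 192 by DESeq2, 9 with only 4 libraries, 0 at 2-fold and FDR under 0.01, and 0 to 10 without 1 library. Other subunits called were 1 with no filter, adaptors 1 with no filter and 1 by DESeq2, and ligands 6 with no filter, 1 by DESeq2 and 0 to 1 without 1 library. In HOXA9 OFF against control, 2-fold and FDR under 0.01 left 987 genes, 3 other subunits, 4 adaptors and 5 ligands. A mean CPM of at least 5 left 3 other subunits. Without 1 library these counts ranged over 1602 to 2840 genes (1602 without control library 2, 1750 without HOXA9 OFF library 1), 3 to 5 other subunits (3 without HOXA9 OFF library 2), 10 to 16 adaptors and 5 to 9 ligands (10 and 5 without HOXA9 OFF library 1). In CAF-1 OFF against HOXA9 OFF, 2-fold and FDR under 0.01 left 948 genes, 2 other subunits and 3 adaptors, and fits without 1 library gave 1711 to 2718 genes, 2 to 4 other subunits and 8 to 14 adaptors. The stricter cutoffs and the filter on mean CPM lower counts by construction, and other causes were not tested.

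The labels shared replicate numbers but did not say that they paired cultures, and deviations of same-numbered libraries correlated at -0.178, 0.456 and 0.0329 in the 3 comparisons. With the replicate number as a block, members called were 0, 3 and 3, and all genes called 2, 2680 and 2684. A crossed replicate block, added after seeing the data, called 1 member and 71 genes in CAF-1 OFF against control. Without length scaling the Itgax share in HOXA9 OFF was 0.334%. Library size alone moved the median log2 fold change by -0.081 in HOXA9 OFF against control and by 0.077 in CAF-1 OFF against HOXA9 OFF. In the former, calls went from 1622 higher and 1118 lower to 1434 and 1409, which was nearly even. In the latter, they went from 1191 higher and 1564 lower to 1475 and 1334, so that the lean of the calls turned. Itgax had 14 to 61 counts per library, and its control libraries, at 61 and 14 counts, lay far apart.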
